A study of Mus musculus with 4 samples.

Results

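The mitochondrial genome of the mouse encodes 13 proteins, and 10 of these genes are described here: mt-Nd1, mt-Nd2, mt-Nd4, mt-Nd5, mt-Nd6, mt-Cytb, mt-Co1, mt-Co2, mt-Co3 and mt-Atp6. They were chosen by name and matched to the 53465 rows of the raw count table through their Ensembl identifiers. All 10 were found among the 37 mitochondrially encoded genes of the table, which also hold 2 ribosomal RNA and 22 transfer RNA genes. The samples were 4 RNA libraries from B16-F10, a pigmented mouse melanoma cell line. Fluorescent cells were infused into zebrafish, and the labels mark 2 libraries as extravasated and 2 as not extravasated, the latter serving as controls here. Where the non-extravasated cells were kept, in fish or in culture, is not stated apart from the shared text. The growth text is shared by all 4 libraries: it speaks of cells that left the vessels as clusters by angiopellosis, were taken back from the fish and were grown in IMDM with 10% FBS. Groups were therefore read from the extravasation field, with which the source name matches. Whether 2 libraries of 1 group stem from different cultures or clones is not stated, and every p-value reflects only how far these libraries spread, which may be technical. A number in the sample titles is shared by the 2 libraries of each group and differs between the groups. Its meaning is not stated, and what it marks cannot be told apart from extravasation.

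Mitochondrial DNA is read from both strands as long polycistronic RNAs. The transfer RNAs between the genes are excised, and most of the mRNAs set free in this way receive a short A tail. The products are core subunits of the respiratory chain and of ATP synthase: mt-Nd1, mt-Nd2, mt-Nd4, mt-Nd5 and mt-Nd6 belong to complex I, mt-Cytb to complex III, mt-Co1, mt-Co2 and mt-Co3 to complex IV, and mt-Atp6 forms part of the proton channel of ATP synthase. Segments of mitochondrial DNA have also been copied into the nuclear chromosomes, and such copies can be near-identical to the genes they came from.

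Total counts were 11705904 to 19674733 per library. All 10 listed pigment cell markers were detected, and their summed level was 25521 to 31780 CPM (reads scaled to a common library total). Of these 10, edgeR called 3 higher (Pmel, Sox10 and Gpr143) and 2 lower (Tyr and Mitf) in extravasated cells. Over all tested genes 19.1% were called higher and 25.9% lower. After a correction of nuclear genes for GC content and length, described below, Gpr143 and Mlana were called higher and 0 markers lower. Of all tested genes 7.9% were then called higher and 5.73% lower. Tyr moved from log2 -0.60 to 0.74 and Mitf from -1.20 to -0.12. These, Pmel (0.41) and Sox10 (0.27) were not called (edgeR, adjusted p 0.0535 to 0.708). Of the markers of other cell types, 3 of 6 endothelial, 4 of 7 immune, 2 of 6 fibroblast and 5 of 5 red cell genes had no count in any library, and the summed level of the immune markers was 0.754 to 1.28 CPM. The other sums were higher in both extravasated libraries: endothelial markers summed to 8.63 and 4.14 CPM without and 15.2 and 14.8 with extravasation, and fibroblast markers to 8.71 and 8.95 and to 11.2 and 10.4. Vwf was the endothelial marker that could be tested and rose (log2 1.30, edgeR, adjusted p = 0.0429). Of 3 fibroblast markers tested, Col1a1 rose (0.83, adjusted p = 0.0351), Pdgfra fell (-1.46, adjusted p = 0.0221) and Col1a2 was not called. With the correction Vwf was still called (1.37, edgeR, adjusted p = 0.0437). Col1a1 (0.62, adjusted p = 0.129) and Pdgfra (-0.89, adjusted p = 0.167) were not. The part of these markers' cells in the results was not tested. In RNA from whole cultures, fewer cells of a type and less RNA per cell cannot be told apart.

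Of the 10 mRNAs, 7 were among the well-measured genes of the table and 3 were almost without reads. mt-Co2 had 1, 2, 1 and 8 counts, in the order non-extravasated 1 and 2, extravasated 1 and 2. mt-Atp6 had 3, 4, 3 and 9 in the same order, and mt-Co3 had 3, 0, 0 and 1. A count of 0 allows up to 0.183 CPM in the non-extravasated library 2 and 0.226 CPM in the extravasated library 1, taking 3 counts as the limit, which covers counting error only. The protein-coding mitochondrial genes that lie beside them were as low: mt-Atp8 had 4 counts in all, mt-Nd3 had 1 and mt-Nd4l had 2. All but mt-Atp8 of these 6 genes have near-identical annotated copies on a nuclear chromosome, described next, so their counts are not read here as levels of the mRNA.

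The low genes lie side by side. A run of 7 annotated pseudogenes on chromosome 1 (GRCm38, chr1:24611535-24616197, minus strand) matched the mitochondrial stretch chrM:6390-11042 gene by gene, from the last part of mt-Co1 through mt-Co2, mt-Atp6, mt-Co3, mt-Nd3 and mt-Nd4l to the first part of mt-Nd4. Gm28661 was identical to mt-Co2 over 681 aligned bases, Gm10925 to mt-Atp6 over 678 and Gm28437 to mt-Co3 over 783. The pseudogenes held few reads themselves, 589 counts over the 7 genes and 4 libraries. mt-Atp8 lies inside the stretch, mostly between mt-Co2 and mt-Atp6, and has no annotated copy. The chromosome 1 bases between Gm10925, which ends at 24614651, and Gm28661, which starts at 24614885, belong to none of the 7 pseudogenes. They were not searched for a copy of mt-Atp8. Short matched stretches show how alike the copies are. They are from mt-Co2 (chrM:7038-7097, plus strand), from Gm28661 (chr1:24615481-24615540, minus strand) and from Gm13341, another copy, on chromosome 2 (chr2:22587878-22587937, minus strand), all with capitals where the copy differs from mt-Co2.
mt-Co2: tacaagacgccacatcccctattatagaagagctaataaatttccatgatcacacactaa
Gm28661: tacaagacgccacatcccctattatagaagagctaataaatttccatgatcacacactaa
Gm13341: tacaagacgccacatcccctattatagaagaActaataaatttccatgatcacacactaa
Over these 60 bases the chromosome 1 copy had 0 differences and the chromosome 2 copy had 1. The closest annotated nuclear relative of mt-Cytb, Gm11410 on chromosome 4 (92.9% identity over 1142 aligned bases), differed from it at 4 of the 60 bases shown next (chrM:14151-14210, plus strand, and chr4:80003995-80004054, plus strand).
mt-Cytb: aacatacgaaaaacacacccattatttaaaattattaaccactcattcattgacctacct
Gm11410: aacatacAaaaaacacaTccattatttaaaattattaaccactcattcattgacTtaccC

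The share of each gene that occurs elsewhere was counted in windows of 50 bases, by exact match to either strand of any annotated nuclear transcript (GENCODE M21). It was 100% for mt-Co2 (635 of 635 windows), 99.5% for mt-Atp6 and 99.9% for mt-Co3. It was 51.1% for mt-Co1 and 62.2% for mt-Nd4, the genes at the edges of the block, 8.19% for mt-Nd2 and 7.61% for mt-Nd5. mt-Nd1, mt-Nd6 and mt-Cytb had no such window. Neither had mt-Atp8, with 4 counts in all, but nuclear sequence outside annotated transcripts was not searched. With windows of 100 bases the share was 99.5% for mt-Co2, 30.8% for mt-Co1 and 60.8% for mt-Nd4, and 3.19% for mt-Nd2. The 3 members with under 20 counts in all were thus those with at least 99.5% of windows shared. How the counting treated reads that match more than 1 place was not given in the sources used here, and its part in the low values was not tested. The edges of the block fall within mt-Nd4 (chrM:11013-11072) and mt-Co1 (chrM:6360-6419), and the 60 bases around them are printed with the bases matched by the chromosome 1 copies Gm28439 and Gm29216 in capitals.
mt-Nd4: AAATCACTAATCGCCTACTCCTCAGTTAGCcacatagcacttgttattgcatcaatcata
mt-Co1: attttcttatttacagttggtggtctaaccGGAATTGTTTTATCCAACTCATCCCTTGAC
Only the lower case side of each edge, and what follows it away from the block, is free of the chromosome 1 copy. mt-Co1 also has a full-length copy on chromosome 2, Gm13340, at 97.6% identity with 37 mismatches over 1545 bases. Counting only copies of the 10 members, 9 nuclear genes had at least 95% identity over 200 bases. Those with at least 100 counts in all were Gm13340 with 225, Gm10925 with 178, Gm13341 with 131 and Gm28661 with 114. The copies of mt-Nd3 and mt-Nd4l, which are not members, held 153 (Gm28438) and 25 counts (Gm10222). Together the 9 copies of members held 171 and 177 counts without and 197 and 273 with extravasation. With these added to their members 9 members could be tested and 1, mt-Nd1, was called. In that fit mt-Co2 (12 counts of its own) and mt-Atp6 (19) consisted mostly of counts from their copies. Their values there are thus not read as levels of the mRNA.

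**Figure D1:**
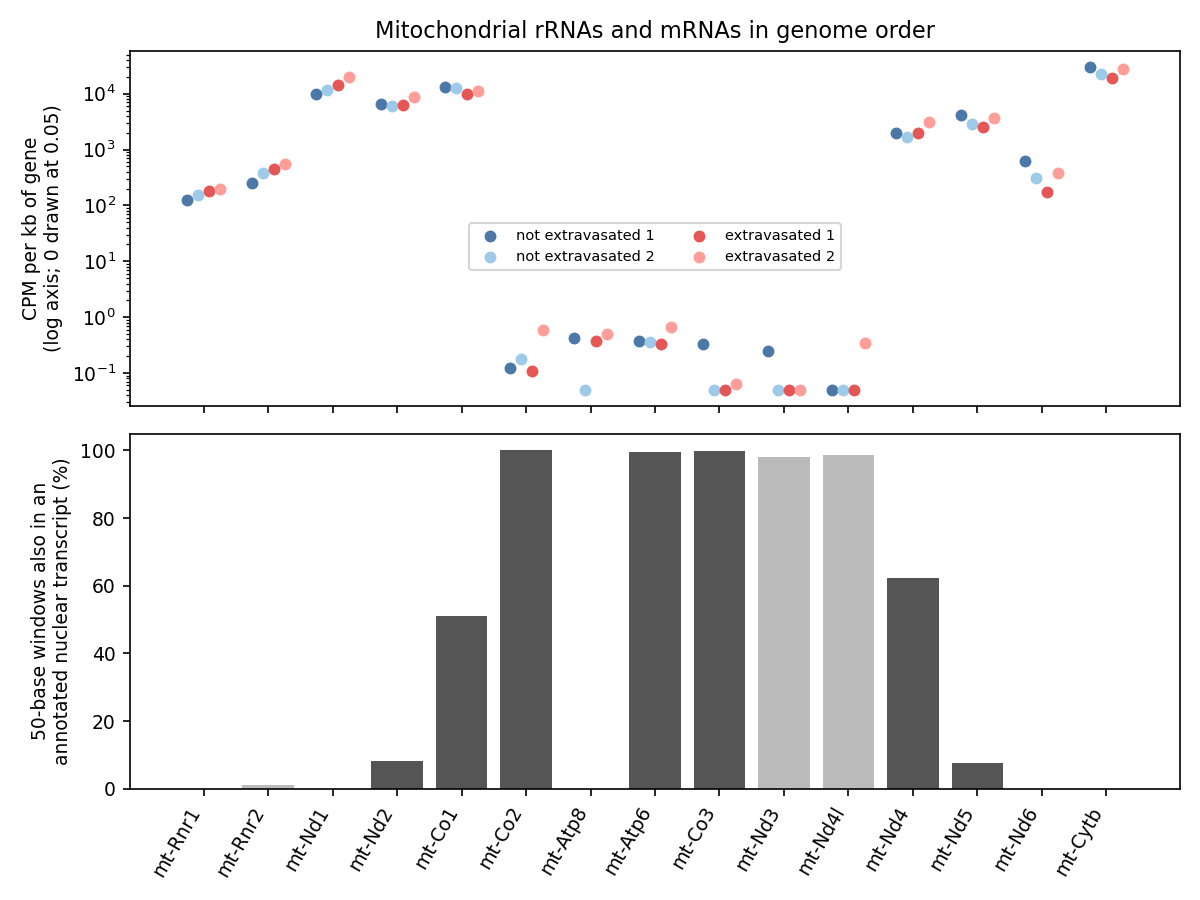
Genes in genome order. Upper panel: CPM of the library total per kilobase of gene (log axis) for the mitochondrial ribosomal RNAs and mRNAs, each point 1 library. Lower panel: percentage of 50-base windows also present in an annotated nuclear transcript (dark bars, the 10 members; light bars, other genes). mt-Co2, mt-Atp6 and mt-Co3 stay below 1 CPM per kilobase where at least 99.5% of windows are shared.

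The annotated 3' ends of the members show a further property of these genes. As annotated, 7 of the 10 end in a complete stop codon. mt-Co3, mt-Nd4 and mt-Cytb end in a single T that only the A tail completes to a stop. Some of the complete stops overlap a neighbouring gene on the same strand. mt-Nd1 ends at chrM:3707 and the transfer RNA mt-Ti starts at 3706. mt-Nd2 ends at 4951 and mt-Tw starts at 4950, and mt-Atp6 ends at 8607, where mt-Co3 starts. Where the mRNAs of mt-Nd1, mt-Nd2 and mt-Atp6 end was not tested. The last 30 bases are given, with the stop codon or its encoded first base in capitals (chrM:3678-3707 for mt-Nd1, chrM:9361-9390 for mt-Co3, chrM:11515-11544 for mt-Nd4 and chrM:15259-15288 for mt-Cytb, all plus strand).
mt-Nd1: tttacagcgggagtaccaccatacataTAG
mt-Co3: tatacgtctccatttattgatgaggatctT
mt-Nd4: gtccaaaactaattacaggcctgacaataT
mt-Cytb: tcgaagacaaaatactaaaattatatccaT
The libraries were made from polyA RNA, so a member is counted only as far as its tail was captured. Both mt-Nd1 and mt-Cytb were among the 5 genes with the most counts in every library. Since the annotated stop of mt-Nd1 overlaps mt-Ti, this pair is not a contrast of mRNAs with and without an encoded stop.

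mt-Nd6 is the only member read from the other strand (chrM:13552-14070, minus strand), and its mRNA is known to carry little or no A tail. Its composition stands apart: G made up 28.1% of its bases and C 5.97%, while G made up at most 16.1% in the other 9 members. Its first 60 bases (chrM:14011-14070, minus strand) hold 12 G, and those of its neighbour mt-Nd5 (chrM:11742-11801, plus strand) hold 0, as shown with G in capitals.
mt-Nd6: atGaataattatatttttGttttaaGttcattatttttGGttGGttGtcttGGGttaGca
mt-Nd5: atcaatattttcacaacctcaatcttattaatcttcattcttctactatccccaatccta
The annotated genes mt-Nd5 and mt-Nd6 overlap by 14 bases on opposite strands. The library kit marks the strand, but the strand setting of the counting was not given, so reads of mt-Nd6 and of RNA running antisense through it cannot be told apart.

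The 10 mRNAs together took 8.16% of counts in the non-extravasated library 1 (95% Wilson interval 8.14 to 8.17), 7.05% in library 2 (7.04 to 7.06), 6.42% in the extravasated library 1 (6.41 to 6.44) and 8.78% in library 2 (8.76 to 8.79). These intervals cover counting error only. The group means were 7.60% ± 0.784 (SD, n = 2) without and 7.60% ± 1.66 (SD, n = 2) with extravasation. The extravasated libraries were both the lowest and the highest of the 4, and the groups overlapped (exact permutation test, two-sided, p = 1; the smallest p that 2 against 2 libraries allow is 0.333). Since mt-Co2, mt-Co3 and mt-Atp6 contribute almost no counts, and mt-Co1 and mt-Nd4 may be counted in part, these shares are not the share of mitochondrial mRNA in the cells.

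**Figure D2:**
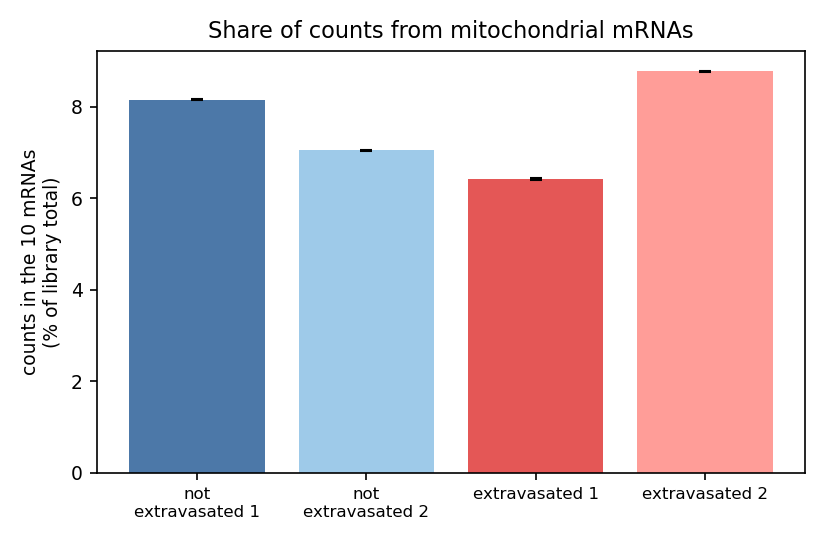
Counts in the 10 mRNAs as a percentage of the library total, 1 bar per library, with 95% Wilson intervals. The extravasated libraries, at 6.42% and 8.78%, lie on either side of the non-extravasated ones.

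mt-Cytb, the cytochrome b subunit of complex III, had the highest count of any gene in all 4 libraries. Levels between genes are compared per length, as CPM of the library total per kilobase. mt-Cytb stood at 30176 and 22879 CPM per kilobase without and at 18756 and 27118 with extravasation. mt-Co1, the catalytic subunit of complex IV, stood at 12919 and 12415 and at 9794 and 11130. mt-Nd1, a membrane subunit of complex I next to the quinone site, stood at 10077 and 11766 and at 14376 and 20288. mt-Co1 was thus above mt-Nd1 in both non-extravasated libraries and below it in both extravasated libraries.

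Among the other complex I subunits, which form its proton-pumping membrane arm, mt-Nd2 had group means of 6204 ± 415 and 7472 ± 1680 CPM per kilobase (SD, n = 2 each, non-extravasated first). mt-Nd5 followed with 3549 ± 920 and 3093 ± 826, and mt-Nd4 with 1808 ± 223 and 2510 ± 790. mt-Nd6 was lowest of the 7 with 463.6 ± 209 and 274.9 ± 141. mt-Nd5 was above mt-Nd4 in every library. If only windows absent from nuclear transcripts count as length, this order turned: mt-Nd4 stood at 5397, 4531, 5357 and 8423 CPM per 1000 such windows, and mt-Nd5 at 4671, 3223, 2791 and 4090, in the order used above. On that scale mt-Co1 stood at 20701 to 27304 and was above mt-Nd1, at 10621 to 21383, in all 4 libraries. The read length was not given, so the scale with 50-base windows is set beside the plain one and is not a corrected level.

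The comparison of the groups asked whether the amount of each mRNA changed with extravasation. It used edgeR's quasi-likelihood test on all 12320 genes that passed the filter on low counts, with levels as TMM-scaled CPM (counts scaled by a factor per library that aligns most genes) and a Benjamini-Hochberg adjusted p under 0.05 as the call. mt-Co2, mt-Co3 and mt-Atp6 did not pass the filter, and 7 of the 10 members were tested. Of these, 1 rose and the other 6 were not called, while 45.1% of all tested genes were called (19.1% higher and 25.9% lower in extravasated cells). The members' median log2 fold change was -0.15, beside -0.02 for all tested genes.

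mt-Nd1 (ENSMUSG00000064341.1, chrM:2751-3707, plus strand) rose. Its level was 9798 and 10705 TMM-scaled CPM without and 13808 and 20114 with extravasation. Both extravasated libraries were above both controls, with a wide gap between the extravasated libraries themselves. The fold change was 1.65 (log2 0.73 ± 0.182, SE; edgeR, adjusted p = 0.0184). Without the extravasated library 2 the log2 fold change was 0.47, and without the extravasated library 1 it was 1.07. Each of these fits has a lone extravasated library, so only the effect sizes are given.

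mt-Nd2 stood at 6853 and 5833 TMM-scaled CPM without and at 6547 and 9312 with extravasation. The groups overlapped, since the extravasated library 1 lay between the controls, and the log2 fold change of 0.32 ± 0.182 (SE) was not called (edgeR, adjusted p = 0.189). mt-Nd4 stood at 2753 and 2163 and at 2699 and 4380, also with overlap, and its log2 fold change was 0.53 ± 0.257 (adjusted p = 0.151). In both genes the extravasated library 2 was the highest of the 4.

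mt-Nd5, which sits at the far end of the complex I membrane arm, stood at 7782 and 5025 TMM-scaled CPM without and at 4593 and 6948 with extravasation. The log2 fold change, -0.15 ± 0.281 (SE), was not called (adjusted p = 0.697 by edgeR). mt-Nd6 stood at 322.5 and 155.7 and at 91.3 and 201.4, a log2 fold change of -0.70 ± 0.491 (adjusted p = 0.295). On the log2 scale it had the widest spread of the 7 within each group, and its extravasated library 2 was above its non-extravasated library 2.

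mt-Cytb stood at 35074 and 24884 TMM-scaled CPM without and at 21535 and 32138 with extravasation, which gave -0.16 ± 0.249 (log2, SE; adjusted p = 0.637 by edgeR). mt-Co1 stood at 20279 and 18236 and at 15187 and 17814. Both of its extravasated libraries were below both controls, and the log2 fold change was -0.22 ± 0.125 (adjusted p = 0.180). mt-Nd1 and mt-Co1 were the members whose groups did not overlap, 2 of 7 tested. Among all tested genes 76.3% did not overlap (37.3% higher and 39% lower in extravasated cells).

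Single libraries decided several of these values. A fit with 1 library left out leaves a lone library in 1 group, so effect sizes alone are given here. Without the non-extravasated library 2, the log2 fold change was -0.43 for mt-Nd5, -0.38 for mt-Cytb and 0.37 for mt-Nd4. mt-Nd5 and mt-Cytb changed sign, to 0.20 and 0.11 without the non-extravasated library 1, and to 0.22 and 0.20 without the extravasated library 1. mt-Nd2 was at 0.44 without the non-extravasated library 1. Without the extravasated library 1, mt-Nd2 was at 0.65 and mt-Nd4 at 0.93. Without the extravasated library 2 these 2 genes were at 0.09 and 0.18. mt-Co1 and mt-Nd6 were below 0 in all 4 of these fits.

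**Figure D3:**
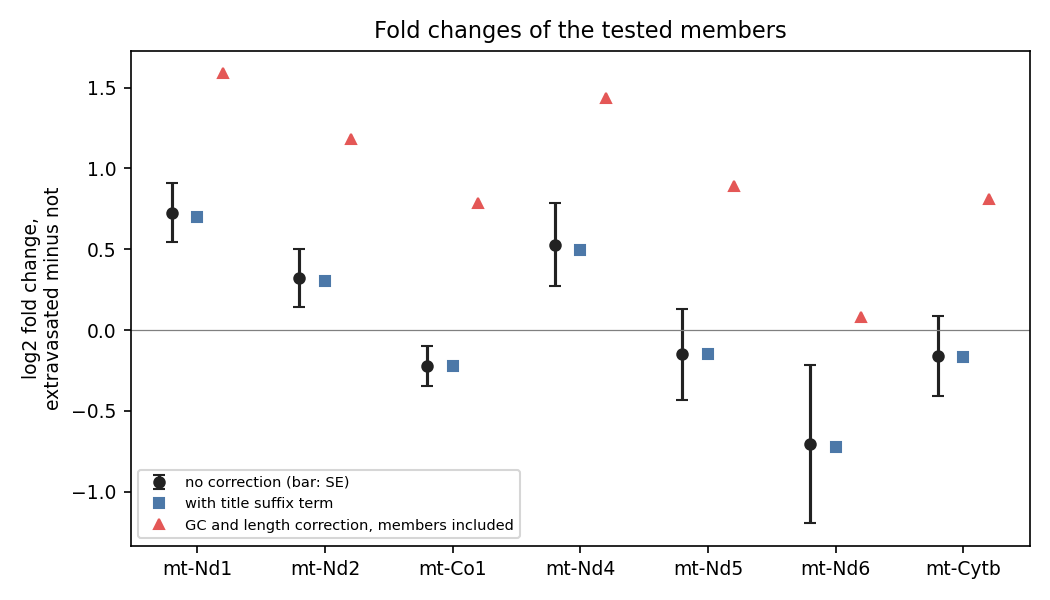
Log2 fold change, extravasated minus not, of the 7 tested members: without correction (circles, bars are standard errors), with the title suffix as a term (squares) and with a GC and length correction that includes the members (triangles). mt-Nd1 is above 0 in all 3, and mt-Co1, mt-Nd5, mt-Nd6 and mt-Cytb change sign with the correction.

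The proportions within the mitochondrial mRNA counts are described next. mt-Nd1 made up 11.8 and 15.98% of the members' counts without and 21.4 and 22.1% with extravasation. mt-Cytb made up 42.3 and 37.1%, then 33.4 and 35.4%, and mt-Co1 24.5 and 27.2%, then 23.6 and 19.6%. mt-Nd2 went from 8.27 and 8.71% to 10.2 and 10.2%, and mt-Nd4 from 3.32 and 3.23% to 4.19 and 4.82%. mt-Nd6 made up 0.389 and 0.232%, then 0.142 and 0.222%. Shares of mt-Nd1, mt-Nd2 and mt-Nd4 were higher, and those of mt-Cytb, mt-Co1 and mt-Nd6 lower, in both extravasated libraries than in both controls. For mt-Nd6 the nearest values were 0.232 and 0.222%. Beside this, 76.3% of all tested genes had groups without overlap in TMM-scaled CPM, which is a different measure. mt-Nd5 overlapped, with 9.39 and 7.50% against 7.13 and 7.64%. Shares of 1 sum move together by construction, and with 2 libraries a group no exact test of a single share can go below p = 0.333.

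**Figure D4:**
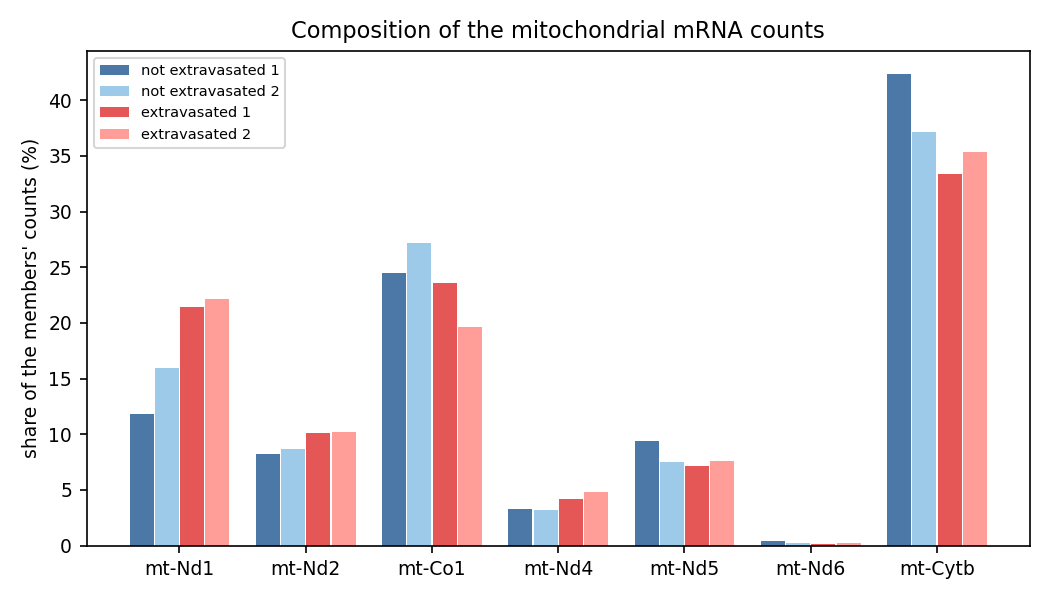
Share of each mRNA in the summed counts of the 10 members (percent), 1 bar per library. mt-Nd1 holds 11.8 to 15.98% in non-extravasated and 21.4 to 22.1% in extravasated libraries. mt-Co2, mt-Co3 and mt-Atp6 are not drawn.

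The genes upstream of mt-Nd1 on the same transcript were higher as well. The ribosomal RNA mt-Rnr1 stood at 120.9 and 141.2 TMM-scaled CPM without and at 173.8 and 196.8 with extravasation (log2 fold change 0.50 ± 0.138, SE; edgeR, adjusted p = 0.0217). mt-Rnr2 stood at 403.2 and 566.7 and at 712.7 and 914.9 (0.75 ± 0.198, adjusted p = 0.0233). In the order of the heavy-strand transcript the log2 fold changes were thus 0.50 for mt-Rnr1, 0.75 for mt-Rnr2, 0.73 for mt-Nd1, 0.32 for mt-Nd2, -0.22 for mt-Co1, 0.53 for mt-Nd4, -0.15 for mt-Nd5 and -0.16 for mt-Cytb. The first 3 were called and the others were not, beside 19.1% of all tested genes called higher and 25.9% called lower. The differences between genes along this order were not tested. Ribosomal RNA in a polyA library depends on which of these RNAs carry a tail, so its level here is not the amount of mitochondrial ribosomes.

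The members were also compared by a label other than the group, a comparison chosen after seeing the data. The sample titles end either in C (non-extravasated library 1 and extravasated library 2) or in a low line and a letter (the other 2), and the labels do not say what this marks. The members took 8.47% ± 0.438 of counts in the libraries with suffix C and 6.74% ± 0.442 in the others (SD, n = 2 each), and these 4 values did not overlap (exact permutation test, two-sided, p = 0.333, the smallest possible). With the group kept as a term, all 7 tested members were higher with suffix C. The log2 difference was 1.10 ± 0.145 (SE) for mt-Nd6, 0.61 ± 0.108 for mt-Nd5, 0.54 ± 0.0978 for mt-Cytb and 0.52 ± 0.117 for mt-Nd4, and 0.37, 0.21 and 0.19 for mt-Nd2, mt-Nd1 and mt-Co1. edgeR called 4 of the 7 with TMM factors (adjusted p 3.71e-05 for mt-Nd6 and 0.0200 for mt-Nd4), beside 0.698% of all tested genes, of which 0.657% were higher with suffix C. The fit has 1 residual degree of freedom, and the calls depend on the scaling: 4 members were called with upper quartile factors and 0 with RLE factors or unscaled totals, where 5 members had an unadjusted p under 0.05. The same log2 difference was -0.02 for the ribosomal RNA mt-Rnr1 and -0.06 for mt-Rnr2, and neither was called (adjusted p = 0.997 for each).

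With the suffix as a term in the comparison of the groups, the fold changes stayed close to those above and their spread became smaller. mt-Nd1 (0.70, edgeR, adjusted p = 0.00408), mt-Nd2 (0.30, 0.0189) and mt-Nd4 (0.49, 0.000632) were then called higher, and mt-Nd6 (-0.72, 6.62e-05) was called lower, with 21.4% of all tested genes called higher and 28.7% lower. This fit too has 1 residual degree of freedom.

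**Figure D5:**
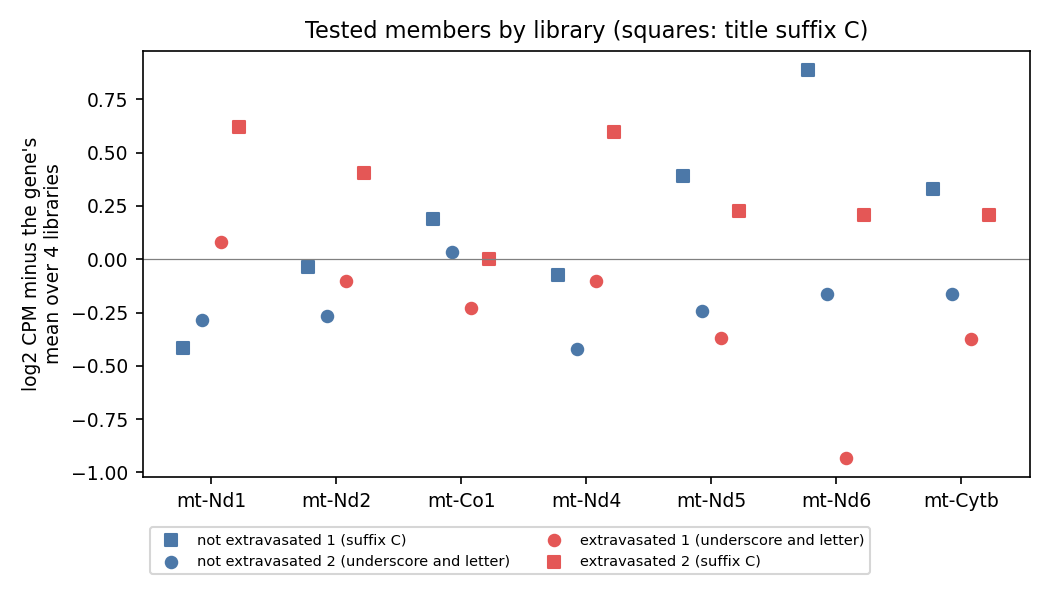
Log2 TMM-scaled CPM of each tested member minus its mean over the 4 libraries, by library (blue, non-extravasated; red, extravasated; squares, title suffix C). In mt-Nd5, mt-Nd6 and mt-Cytb both squares lie above both circles, while in mt-Nd1 both red points lie above both blue ones.

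The fold changes of nuclear genes in this comparison moved with the GC content of their transcripts, and the members are AT-rich (34.1 to 39.9% GC in the 7 tested). Of 11126 tested nuclear coding genes, 450 had a GC content in that range. Of these, 339 fell, 111 were not called, and their median log2 fold change was -1.27. The 7 members had a median of -0.15. A smooth of GC content and length fitted on nuclear genes assigned them log2 values between -1.03 (mt-Nd5) and -0.77 (mt-Nd6). If this trend is removed from the members too, 6 of the 7 were called higher (edgeR, adjusted p 0.00489 to 0.0133), beside 7.97% of all tested genes called higher and 5.75% lower, with log2 fold changes of 1.59 for mt-Nd1, 1.43 for mt-Nd4, 1.18 for mt-Nd2, 0.89 for mt-Nd5, 0.81 for mt-Cytb and 0.79 for mt-Co1. mt-Nd6 was at 0.08 (adjusted p = 0.831). If it is removed from nuclear genes alone, the members keep their values and mt-Nd1 is the called one (adjusted p = 0.0406). Whether mitochondrial RNA is subject to the trend was not tested, and the direction of mt-Co1, mt-Nd5, mt-Nd6 and mt-Cytb depends on that choice, that of mt-Nd5 and mt-Cytb also on single libraries as given above.

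Nuclear genes that make and handle these mRNAs were called in both directions, in lists of 7 to 25 genes, beside 19.1% higher and 25.9% lower over all tested genes. After correction of nuclear genes for GC content and length, the calls in these 4 lists were rises, 1 of 12 in replication, 2 of 25 in RNA processing and 2 of 17 in translation, and no transcription gene was called, beside 7.9% higher and 5.73% lower over all tested genes. Of 7 genes of mitochondrial transcription, 1 rose and 2 fell, with a median log2 fold change of -0.54. Polrmt, the mitochondrial RNA polymerase, rose from 29.2 ± 1.64 to 49.2 ± 4.84 TMM-scaled CPM (SD, n = 2 each; log2 0.75, edgeR, adjusted p = 0.00691). Tfb2m, which opens the promoter for it, fell (-0.90, adjusted p = 0.0178), as did Mterf3, a factor that binds mitochondrial DNA and restrains transcription (-1.12, adjusted p = 0.00436). After correction of nuclear genes for GC content and length these were 0.34, 0.07 and -0.26, not called (adjusted p = 0.124, 0.843 and 0.355), and the list's median was 0.23.

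Of 25 genes of mitochondrial RNA processing and stability, 5 rose and 6 fell (median log2 fold change -0.02). Fastk (0.93, edgeR, adjusted p = 0.00244) and Tbrg4 (0.88, 0.00318), members of a family of mitochondrial RNA-binding proteins, rose. Pnpt1, the polynucleotide phosphorylase that degrades mitochondrial RNA, fell (-1.28, 0.00255). With the correction none of the 3 was called, at 0.39, 0.44 and -0.16 (adjusted p = 0.0685, 0.0596 and 0.397). The 2 genes of the list called with it, both higher, were Pde12, which shortens A tails in mitochondria (1.13, adjusted p = 0.00753; -0.27 before), and Slirp, which stabilises mitochondrial mRNAs (0.83, adjusted p = 0.0244; -0.08 before). The list's corrected median was 0.20. The nucleoid and replication list came next. Of 12 genes of mitochondrial DNA replication and the nucleoid, 4 rose and 3 fell. Ssbp1, the single-strand binding protein, had a log2 fold change of -0.74 before and 0.46 after correction (adjusted p = 0.00318 and 0.0717). Primpol, a primase, had -1.07 before and -0.04 after it, and Atad3a, a membrane ATPase linked to nucleoids, 0.72 and 0.29 (corrected adjusted p = 0.889 and 0.172). Polg, the mitochondrial DNA polymerase, was the gene of this list called after correction (0.73, adjusted p = 0.0148; 0.58 before). Of 17 translation factors 4 rose and 4 fell, the lowest p-values being for falls in Guf1 (-1.46), Mtif2 (-1.33) and Mtrf1l (-1.08), which act in elongation, initiation and termination. Corrected values of these 3 were -0.43, -0.58 and -0.70, below the call (adjusted p = 0.0832, 0.0862 and 0.0743). The elongation factor Gfm1 (0.57, adjusted p = 0.0221; -0.05 before) and Gatb, which helps to charge a mitochondrial transfer RNA (0.68, adjusted p = 0.0330; 0.57 before), were called higher with the correction.

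Many nuclear-encoded partners in the same complexes rose. Of 7 nuclear core subunits of complex I 5 rose and 1 fell, of 9 subunits of complex III 6 rose and 1 fell, of 10 of complex IV 6 rose, and of 12 of ATP synthase 8 rose. Their median log2 fold changes were 0.56, 0.74, 0.55 and 0.63. Over all tested genes 19.1% were called higher and 25.9% lower, with a median of -0.02. In complex I, Ndufs8 (0.72) and Ndufs7 (0.81), which carry iron-sulfur clusters, rose, and Ndufs1, the largest core subunit, fell (-0.86; edgeR, adjusted p 0.00496 to 0.00704). After correction these were 0.10, 0.10 and -0.20 and not called (adjusted p 0.353 to 0.644). In complex III, Cyc1, the cytochrome c1 that works beside mt-Cytb, rose from 137.0 ± 0.0829 to 292.6 ± 24.0 TMM-scaled CPM (SD, n = 2 each; log2 1.09, edgeR, adjusted p = 0.00104) and kept its call after correction (0.60, adjusted p = 0.0155). Uqcr11 (0.87) and the core protein Uqcrc1 (0.84) rose too, and were at 0.15 and 0.32 after correction, not called (adjusted p = 0.436 and 0.109). In complex IV, Cox5b rose (0.69, adjusted p = 0.00491) and stood at 0.64 after correction (adjusted p = 0.0155). Cox7a2 (0.60) and Cox6b1 (0.63) rose, with 0.20 and 0.32 after correction, not called (adjusted p = 0.235 and 0.119). In ATP synthase, Atp5g1, which encodes the membrane ring subunit that turns against mt-Atp6, rose from 56.4 ± 10.0 to 129.6 ± 11.0 TMM-scaled CPM (log2 1.20, edgeR, adjusted p = 0.00170; 1.82 and 0.00416 after correction). The catalytic beta subunit Atp5b rose (0.69, adjusted p = 0.00267; 0.49 and 0.0277 after correction), and the delta subunit Atp5d rose (1.08, adjusted p = 0.000936) but was not called after correction (0.39, adjusted p = 0.0563). After correction the numbers called higher were 1 of 7 (Ndufv2, 1.06), 4 of 9, 4 of 10 and 4 of 12, and Atp5j of ATP synthase was called lower (-0.69, adjusted p = 0.0155), with medians of 0.10, 0.32, 0.26 and 0.26, beside 7.9% of all tested genes called higher, 5.73% lower and a median of 0.04. These lists hold different genes from the members and the difference between them and the members was not tested.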

How the data were processed

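Raw read counts per gene of 4 polyA libraries were deposited by the authors as 1 table. The submitters' processing notes name STAR 2.5.3a, bcl2fastq 2.18.0.12 and GRCm38. Counter, annotation release, strand setting, read length and the handling of reads matching several places are not given in the sources used here. Of 53465 identifiers, 53274 matched GENCODE M21 (GRCm38) without their version, and 191 did not. Libraries were grouped by the extravasation label and numbered in accession order, which only names them.

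Counts entered edgeR 4.0.16 (R 4.3.3) after its default low-count filter (at least 10 counts, 15 in total). TMM scaled the libraries, and the quasi-likelihood test, two-sided, with robust moderation, had no covariates; p-values were Benjamini-Hochberg adjusted over all tested genes. A standard error is the fold change divided by the root of F. Deviations used log2 CPM with a prior count of 2. Nuclear copies were found with blastn 2.17.0 (at least 95% identity over 200 bases) among GENCODE transcripts, from which all printed sequences come. The GC and length correction was a smooth (mgcv 1.9.3, basis size 10) per library over nuclear coding genes, entered as an offset. Alternatives used DESeq2 1.42.0, limma-voom 3.58.1, other factors, filters and terms, and left out each library. The code was tested on simulated counts.

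The members, lists and tests were chosen with earlier results of these data known. All members are described; of each list, up to 3 called genes with the smallest adjusted p are named. The cell type markers with values or calls and Polg, Pde12, Slirp, Gfm1, Gatb, Ndufv2 and Atp5j were named after their values were seen. The comparison by title suffix was chosen after seeing the data.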

Additional observations from a re-analysis of the deposited data

How the results depend on the processing

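The number of genes that differed, 5551, was 1679 with GC and length correction of nuclear genes, 1691 with the correction extended to the members, 2792 at an adjusted p under 0.01, and 1874 to 6251 with 1 library left out (1874 without the extravasated library 2, 3591 without the extravasated library 1). The number of members that differed, 1, was 3 with no expression filter, 4 with the title suffix as a term, 6 with the correction extended to the members, 0 at an adjusted p under 0.01 (edgeR, 1 member with an unadjusted p under 0.05), and 0 to 4 with 1 library left out: 2 without the non-extravasated library 1, 4 without library 2, 3 without the extravasated library 1 and 0 without library 2 (1 with an unadjusted p under 0.05). RLE and upper quartile factors, unscaled totals, DESeq2, limma-voom, a filter of CPM above 1, no robust moderation, library sizes without mitochondrial genes and added nuclear copies each gave 1. The members' median log2 fold change was 0.89 with the correction extended to them, 0.10 with no expression filter (10 members) and -0.30 to 0.22 with 1 library left out. That correction turned mt-Co1 to 0.79, mt-Nd5 to 0.89, mt-Cytb to 0.81 and mt-Nd6, not called, to 0.08. mt-Nd1 was above 0 in every alternative run. The difference in the members' share of counts was -1.18 to 1.17 percentage points with 1 library left out. The members that differed by title suffix, 4 with TMM factors, a comparison chosen after seeing the data, were 0 with RLE factors and 0 with unscaled totals. The causes were not tested. Leaving out 1 library leaves a lone one, taken to vary as the other group does. No paired analysis was possible because the labels give no replicate numbers; the title suffix, which splits each group in the same way but whose meaning is not given, was entered as a term (4 members, above).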

Other observations

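Among the transfer RNA genes of the mitochondrial genome, 10 of 22 had a count in some library, with 39, 61, 74 and 116 counts in all in the non-extravasated libraries 1 and 2 and the extravasated libraries 1 and 2. mt-Tt, the transfer RNA for threonine that lies next to mt-Cytb, had 2 and 3 counts without and 24 and 29 with extravasation. It passed the filter on low counts only through the extravasated libraries, so no test of it is given. mt-Tw, the transfer RNA for tryptophan, had 19, 26, 32 and 40 counts and was not called (edgeR, adjusted p = 0.291).

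The nuclear genes whose deviations over the 4 libraries were closest to the median deviation of the 7 tested members (0.19, -0.24, -0.23 and 0.23 on the log2 scale) were Npr2, Fbxo9, Ahnak2, Polr2a and 2700062C07Rik, with root mean square differences of 0.0715 to 0.0830. This is a description over 4 libraries, chosen from all genes of at least 10 CPM.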
